A study of Sus scrofa with 2 samples.

Results

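FGF10 is a secreted fibroblast growth factor and FGFR2 is a receptor tyrosine kinase that binds it. Both genes were followed through every cell class of pig dorsal skin in single-cell RNA sequencing. They were found by symbol among the 31908 genes of the count matrices, and 2 of the 3 symbols looked for were measured in this way. FGF7 was not analysed here. Skin came from healthy young male farm pigs, whose exact age is not given in the sources used here, and no genotype, transgene or drug treatment was named. One library was made from freshly dissociated cells and one from cells of the same protocol that had been frozen in FBS with DMSO, stored in liquid nitrogen and thawed (the cryopreserved library). The extract protocol mentions freezing for both samples, while the title and the treatment label set the fresh sample apart. The sources used here name no animal for either library. Each condition therefore had 1 library, no test was possible, and every interval below is an exact 95% interval that covers counting error only.

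In skin, FGF7 and FGF10 are known as signals from dermal mesenchyme to epithelium. They act through the IIIb splice form of FGFR2, which epithelial cells make, whereas mesenchymal cells that express FGFR2 usually make the IIIc form, which binds other FGFs. The proteins ESRP1 and ESRP2 steer splicing toward IIIb. FGFR2 signalling supports keratinocyte growth and hair follicle formation, and heparan sulphate chains on the cell surface help the ligand to engage its receptor. Counts from the 3′ end of transcripts, as here, cannot tell IIIb from IIIc.

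FGF10 (ENSSSCG00000016878) lies on the minus strand of chromosome 16 of Sscrofa11.1, from 28695465 to 28779953, with 3 exons in the RefSeq annotation. FGFR2 (ENSSSCG00000010698) lies on the minus strand of chromosome 14, from 131183095 to 131285001, in a RefSeq model of 17 exons that is partial at its low-coordinate end. For this minus-strand gene that is the 3′ end, the end that the assay reads. The counts used here were made on Ensembl genes, so the partial RefSeq model does not show that FGFR2 was counted incompletely.

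The matrices held 4379 fresh and 4860 cryopreserved barcodes, of which 2775 and 4223 passed the study's maxima of 4500 genes, 30000 unique molecular identifiers (UMIs) and 10% mitochondrial UMIs. The retained cells held 32274985 and 36687009 UMIs, with medians of 11017 and 7945 per cell, so single cells were sampled less deeply in the cryopreserved library. The 2 libraries shared 5 of the retained barcodes. Both genes and all FGF pathway genes were left out of the features used for clustering. The 24 clusters included 7 that were fibroblast-like (1214 fresh and 1573 cryopreserved cells) and 5 that were keratinocyte-like (530 and 1058 cells). Levels are given as CPM, the UMIs of a gene among 1000000 UMIs of the same cells. Where values are paired without a label, the fresh value comes before the cryopreserved one.

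**Figure D1:**
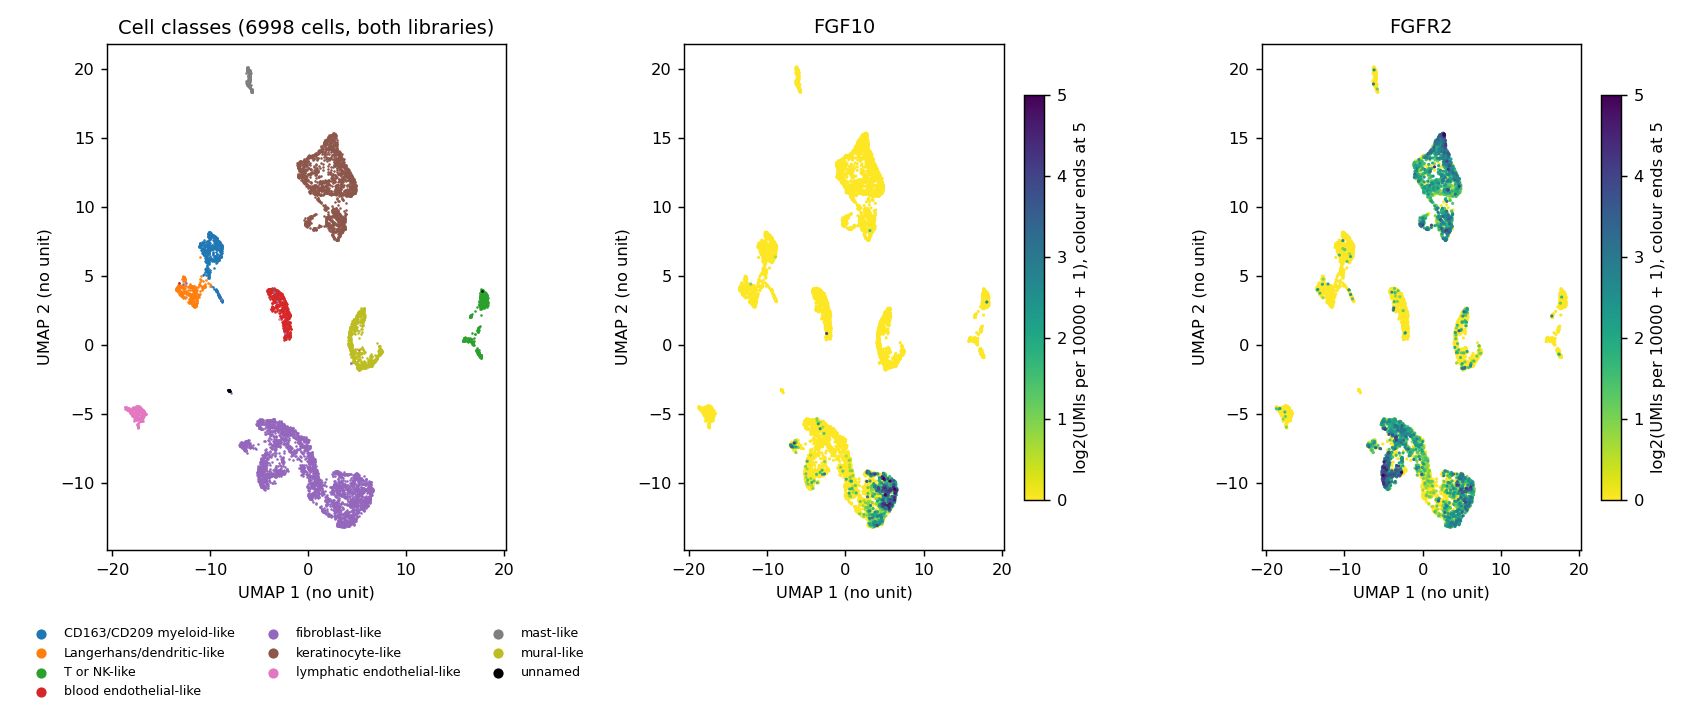
UMAP of the 6998 retained cells of both libraries (axes without unit), coloured by cell class on the left and by the log2 level of FGF10 and FGFR2 per cell in the middle and on the right. FGF10 is seen in a part of the fibroblast-like cells, while FGFR2 covers the keratinocyte-like and most fibroblast-like cells.

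FGF10 was a fibroblast transcript in both libraries. Of its 1274 fresh UMIs, 1272 were in fibroblast-like cells, where the level was 80.7 CPM (76.3 to 85.3). In the cryopreserved library 1434 of 1444 UMIs were in fibroblast-like cells, at 87.1 CPM (82.7 to 91.7). The fold of fibroblast-like over all other cells was 666 (184 to 5508) in fresh and 176 (95.5 to 368) in cryopreserved cells. These folds rest on the few UMIs outside, and with all barcodes, those over the maxima included, they were 16.7 (13.7 to 20.5) and 47.6 (34.9 to 66.6). Without the 6% of cells with the highest Scrublet doublet scores the cryopreserved fold was 876 (242 to 7239). Outside the class, 2 fresh UMIs came from 1 dendritic-like cell. The 10 cryopreserved UMIs came from 3 cells, and 8 of them from 1 T or NK-like cell. In keratinocyte-like cells FGF10 had 0 UMIs in the fresh library, which allows up to 0.388 CPM, and 1 UMI in the cryopreserved library. Mural, blood endothelial, lymphatic endothelial and mast-like cells held 0 FGF10 UMIs in both libraries, which allows up to 11.7 CPM in mast-like cells and up to 5.01 CPM in each of the other 3 classes (3 counts per class and library).

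Within the fibroblast-like cells the ligand was concentrated in a few subsets. The highest level was in cluster 0, which was led by FCN2, MYOC, EPHA3 and TMEFF2. There FGF10 had 973 UMIs, or 293 CPM (275 to 312), in the fresh library and 1141 UMIs, or 289 CPM (273 to 307), in the cryopreserved library. Cluster 0 alone held 76.4% and 79.0% of all FGF10 UMIs.

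Cluster 7, led by SEMA3G, PTX3 and NTRK2, followed at 105 CPM (91.3 to 120) fresh and 71.3 CPM (62.3 to 81.2) cryopreserved. Cluster 18, led by COCH, TNN, ITGA8 and ACAN, had 34.0 CPM (20.5 to 53.1) and 42.4 CPM (27.9 to 61.6). The values of these 3 clusters, taken over both libraries, did not overlap with each other or with those of any other cluster. Their intervals were not compared in this way. Cluster 18 rested on 19 and 27 UMIs in 8 and 13 cells, and single cells held up to 8 and 9 of them. Its fresh interval overlapped that of the small cluster 21 (0.121 to 26.5). The 0 UMIs of the unnamed cluster 22 allow up to 181 and 81.3 CPM.

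The remaining fibroblast-like clusters were low. Cluster 5, with CCL19, COL6A5 and LEPR, had 9.15 and 10.7 CPM, and cluster 4, with CTHRC1, ASPN and SFRP2, had 9.88 and 5.57 CPM. Cluster 1, with WIF1, NT5E and RSPO1, had 2.67 CPM from 12 fresh UMIs and 0.871 CPM from 3 cryopreserved UMIs. The small dividing cluster 21 had 1 fresh UMI and 0 cryopreserved UMIs. Clusters 5 and 4 overlapped, as did all clusters below them.

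Clusters 0 and 7 together held 93.5% of the fresh and 94.8% of the cryopreserved FGF10 UMIs, and their level was 28.2-fold (22.5 to 35.8) and 27.5-fold (21.4 to 35.8) that of the other fibroblast-like clusters. Cluster 0 stood 2.80-fold (2.42 to 3.26) over cluster 7 in fresh and 4.06-fold (3.52 to 4.70) in cryopreserved cells. Over the 6 larger fibroblast-like clusters the level of FGF10 ranged 173-fold, taken as the mean log2 over libraries. The lowest of these was cluster 1, with 12 and 3 UMIs. Of 11771 genes with at least 50 UMIs in these cells, 12.4% ranged at least 8-fold and 0.433% ranged as widely as FGF10. FGF10 was itself among the leading genes of cluster 0 and was chosen with earlier results of these data known. Its place among all genes is therefore a description and no independent support.

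FGF10 was also uneven among cells of a subset. In cluster 0, an FGF10 UMI was detected in 51.3% of cells when fresh and 50.9% when cryopreserved, while single cells reached 40 and 68 UMIs. Over the whole class, where differences between clusters also count, the 5% of fibroblast-like cells with the most FGF10 held 63.4% and 64.0% of its UMIs. For FGFR2, which had more UMIs in these cells, the corresponding shares were 25.7% and 27.9%. The genes were not compared at equal UMI counts. To compare shares of cells at equal depth, each cell was thinned to 3000 UMIs and shallower cells were left out (37 fresh and 81 cryopreserved fibroblast-like cells). An FGF10 UMI then remained in 12.9% (11.05 to 15.0%) of fresh and 12.5% (10.9 to 14.3%) of cryopreserved fibroblast-like cells, against 21.0% and 22.9% before thinning. In cluster 0 the thinned shares were 36.3% and 32.1%, and in cluster 7 they were 21.7% and 14.8%. T or NK-like cells, taken here as the background, gave 0 of 142 and 1 of 210 cells after thinning. Their median depths were 6538.5 and 5172.5 UMIs against 12850 and 10227 in the fibroblast-like cells. Whether T or NK-like cells make FGF10 themselves was not tested.

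**Figure D2:**
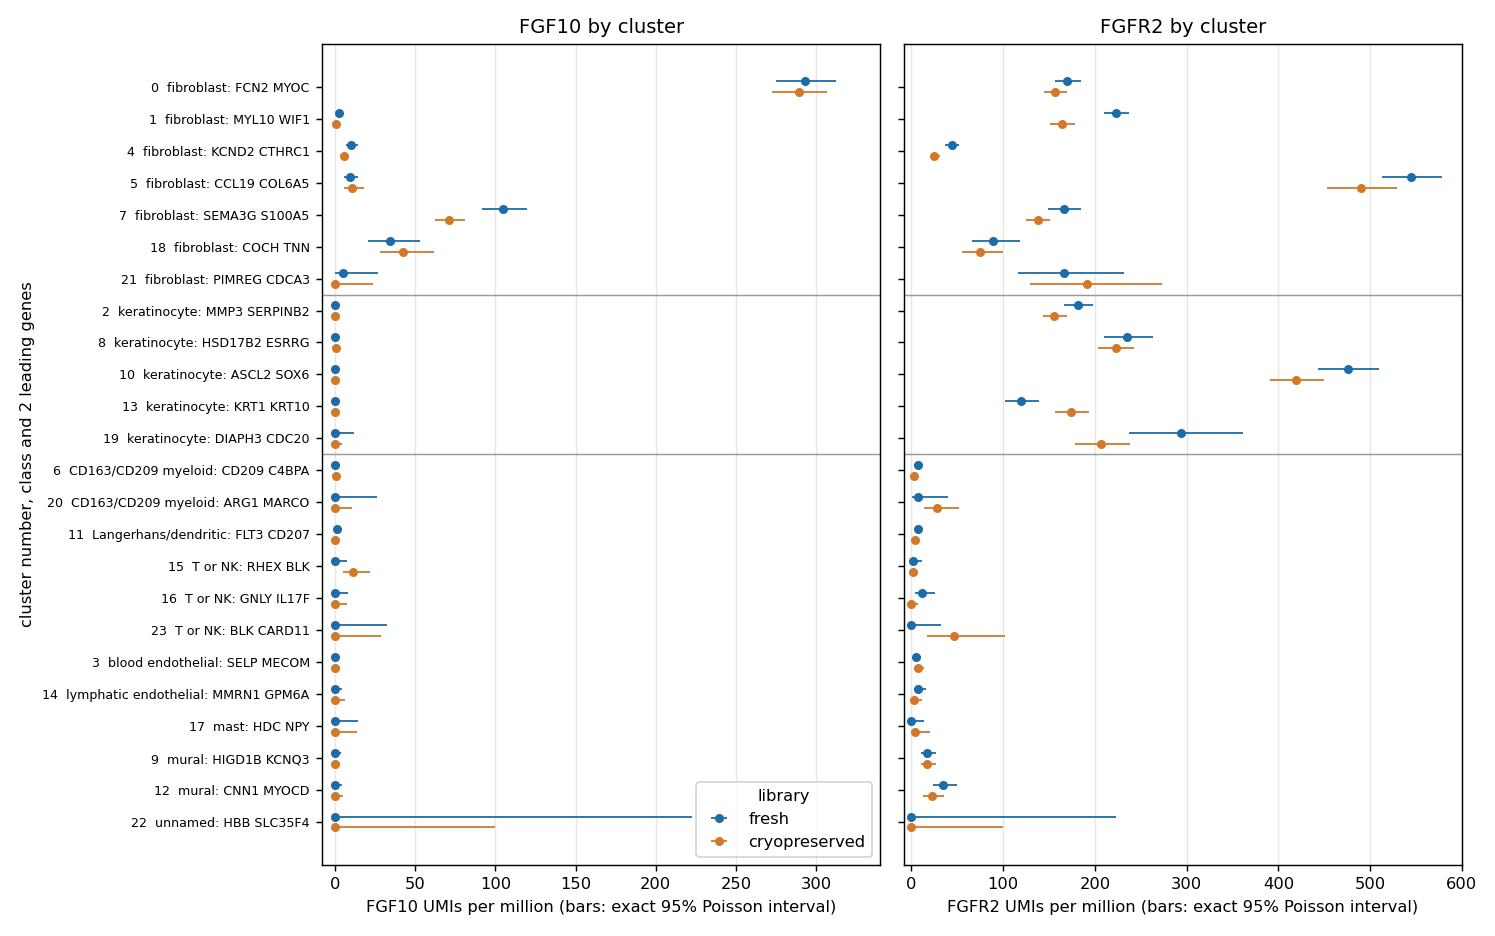
Level of FGF10 (left) and FGFR2 (right) in CPM for each of the 24 clusters, named by class and leading genes, with exact 95% Poisson intervals for the fresh (blue) and cryopreserved (orange) library. FGF10 peaks in fibroblast-like cluster 0 at 293 and 289 CPM, and FGFR2 peaks in fibroblast-like cluster 5 and keratinocyte-like cluster 10.

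FGFR2 was present at similar orders of level in keratinocyte-like and fibroblast-like cells and was scarce elsewhere. In keratinocyte-like cells it had 1928 UMIs, or 249 CPM (238 to 261), in fresh and 2383 UMIs, or 224 CPM (215 to 233), in cryopreserved cells. In fibroblast-like cells it had 3206 UMIs, or 203 CPM (196 to 211), and 2441 UMIs, or 148 CPM (142 to 154). Keratinocyte-like cells were thus 1.23-fold (1.16 to 1.30) and 1.51-fold (1.43 to 1.60) over fibroblast-like cells.

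Against all other cells, the keratinocyte-like level was 1.86-fold (1.75 to 1.96) in fresh and 2.31-fold (2.18 to 2.45) in cryopreserved cells. All other cells include the fibroblast-like cells here. Cells of neither class had 90 and 80 FGFR2 UMIs, or 10.3 and 8.35 CPM, and keratinocyte-like cells were 24.3-fold (19.7 to 30.4) and 26.8-fold (21.4 to 33.9) over them. Fibroblast-like cells were 19.8-fold (16.1 to 24.7) and 17.8-fold (14.2 to 22.5) over them. Among the other classes, mural cells were highest, at 25.0 CPM (18.4 to 33.1) and 19.2 CPM (13.5 to 26.4), and the named immune and endothelial classes lay between 0 and 7.41 CPM.

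Among keratinocyte-like clusters FGFR2 was highest in cluster 10, led by ASCL2, KRT15 and CXCL14 and named from basal markers such as KRT5, ITGA6 and TP63. Its level was 475 CPM (443 to 509) in fresh and 420 CPM (391 to 450) in cryopreserved cells. Cluster 8, with PTHLH and SOX9, had 236 and 223 CPM, and the dividing cluster 19 had 294 and 207 CPM. Cluster 2, with SERPINB2, CCL27 and CLDN4, had 182 and 156 CPM.

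Cluster 13, led by the differentiation keratins KRT1 and KRT10, had 120 CPM (102 to 139) and 174 CPM (156 to 194). Clusters 2, 8 and 19 were named from the same 8 differentiation markers as cluster 13, among them KRT1, KRT10 and DSG1. The basal-like cluster 10 stood 3.98-fold (3.37 to 4.72) over cluster 13 in fresh and 2.41-fold (2.12 to 2.75) in cryopreserved cells, and 2.62-fold and 2.69-fold over cluster 2. The range over the 5 keratinocyte-like clusters was 3.09-fold, and 30.8% of 10709 genes ranged as widely, so a range of this size was common among genes. At least 8-fold was reached by 9.12% of these genes.

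The cluster with the highest FGFR2 level of all 24 was fibroblast-like. Cluster 5 had 1071 UMIs, or 545 CPM (512 to 578), in fresh and 643 UMIs, or 490 CPM (453 to 530), in cryopreserved cells. It stood 1.15-fold (1.04 to 1.26) and 1.17-fold (1.05 to 1.30) over the basal-like cluster 10. Cluster 5 carried 8 of 8 fibroblast markers, among them COL1A1, DCN and PDGFRA, at a sum of 65218 and 66593 CPM. Of 15 keratinocyte markers, 12 had a UMI in it in fresh and 14 in cryopreserved cells, at a sum of 396 and 557 CPM, against sums of 17636 CPM or more in each keratinocyte-like cluster. ESRP1, the splicing regulator of epithelium, was at 2.03 and 0 CPM in cluster 5 and at 414 and 394 CPM in cluster 10.

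The other fibroblast-like clusters were spread below. Cluster 1 had 223 and 165 CPM, cluster 21 had 167 and 192 CPM, cluster 0 had 170 and 156 CPM, and cluster 7 had 166 and 138 CPM. Cluster 18 was lower, at 89.5 and 75.3 CPM. Cluster 4, with CTHRC1, had 43.99 CPM (37.0 to 52.0) and 25.2 CPM (20.4 to 30.8), so that cluster 5 stood 12.4-fold (10.4 to 14.9) and 19.5-fold (15.7 to 24.4) over it. The range over the 6 larger fibroblast-like clusters was 15.5-fold, and 6.87% of genes ranged as widely.

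In order of CPM, cluster 5 stood above cluster 10, and cluster 10 above all others. By shares of cells with an FGFR2 UMI, at 3000 UMIs per cell, clusters 5 and 10 were not apart. In fresh cells the intervals of these shares were 65.2 to 78.4% in cluster 5 and 62.4 to 79.3% in cluster 10. In cryopreserved cells they were 59.8 to 74.5% and 59.9 to 73.6%. Clusters 19, 8, 1, 21, 2, 0, 7 and 13 then formed a run in which the values of neighbours overlapped between libraries. Cluster 18 lay apart below this run, and cluster 4 below cluster 18. Cluster 4 overlapped with the mural cluster 12, at 35.0 and 22.1 CPM.

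After thinning to 3000 UMIs, an FGFR2 UMI remained in 45.5% (41.1 to 49.9%) of fresh and 44.01% (40.9 to 47.1%) of cryopreserved keratinocyte-like cells, against 85.1% and 77.4% before. Among fibroblast-like cells it remained in 38.7% and 31.8%, with 72.1% and 67.5% in their cluster 5, and in the keratinocyte-like cluster 10 in 71.4% and 67.0%. T or NK-like cells gave 1.41% and 0.476%, a background far below either class.

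The clusters rich in FGF10 and those richest in FGFR2 were not the same. Cluster 0 combined the highest FGF10 level with an FGFR2 level in the middle of the order, and cluster 5 combined the highest FGFR2 level with little FGF10. Over 40 sums of 20 clusters and 2 libraries, Pearson's r between the log2(CPM + 1) levels of the 2 genes was 0.32, and over the 12 fibroblast-like sums it was 0.013. These points share libraries and depth and serve as a description.

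Within cluster 0, the share of cells with an FGFR2 UMI was set side by side for cells with and without an FGF10 UMI, at 3000 UMIs per cell. In cells with FGF10 it was 49.5% (53 of 107 cells, 39.7 to 59.4%) against 24.5% (18.5 to 31.3%) of the other cells in the fresh library. In the cryopreserved library it was 41.9% (57 of 136 cells, 33.5 to 50.7%) against 27.1% (22.0 to 32.6%). At 1000 UMIs per cell the shares were 23.7% against 13.2% in fresh and 10.7% against 12.9% in cryopreserved cells, so the gap was not seen in the latter at that depth. With finer clusters, at resolution 1.2, the subcluster richest in FGF10 gave 50 of 100 cells against 32.7% in fresh and 44.7% against 33.8% in cryopreserved cells at 3000 UMIs, with overlapping intervals in each library.

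The genes whose levels followed each member most closely over these 40 sums were named by Pearson's r among 11691 genes with at least 200 UMIs. For FGF10 they were ZFHX4 (0.918), TMEM100 (0.888), MYOC (0.886), GFPT2 (0.870) and NEGR1 (0.864). The 40 sums include many clusters without FGF10 UMIs, so a high r need not hold among fibroblast subsets. CPZ and NT5E had r 0.69 and 0.48 with FGF10 over the 40 sums, but -0.87 and -0.89 over the 12 fibroblast-like sums. MYOC kept r 0.83 over those 12 sums, and for ZFHX4, TMEM100, GFPT2 and NEGR1 that r is not given. For FGFR2 they were EFS (0.915), BOC (0.914), CHL1 (0.913), IRX2 (0.906) and ENSSSCG00000009501 (0.901).

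Markers of fibroblast subsets, chosen with earlier results of these data known, were set beside both genes. MYOC and TMEFF2 also led cluster 0, the cluster with most FGF10. Their r with FGF10, and those of markers of other subsets, therefore describe this choice and are no independent support. The share of all genes with r of this size is not given. MYOC, which encodes myocilin, had 897 and 1192 CPM in cluster 0, and over the 12 fibroblast-like sums its r with FGF10 was 0.83. TMEFF2 had 471 and 379 CPM there, with r 0.76. NT5E, the ecto-enzyme CD73, had 5.73 and 7.86 CPM in cluster 0 against 202 and 249 CPM in cluster 1, and its r with FGF10 was -0.89. The corresponding r was -0.87 for CPZ, -0.54 for CTHRC1 and -0.38 for SPON1. With FGFR2, SPON1 had r 0.52 and CTHRC1 had -0.66, and the other 4 markers lay between -0.27 and 0.16.

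Of 60 other genes of the FGF pathway, 58 were found and 42 had at least 50 UMIs, beside 14443 of all 31908 genes. Of these 42, 11 were at least 2-fold higher in fibroblast-like cells and 7 at least 2-fold higher in keratinocyte-like cells in both libraries. The corresponding shares of all 14443 genes with at least 50 UMIs were 19.0% and 20.1%, and the median log2 ratio of fibroblast-like over keratinocyte-like cells was 0.09 over the 42 genes and -0.24 over all genes. The pathway held members on both sides, and nothing particular to the list is read from these counts.

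Most other ligands were scarce. Of 16, 13 had a UMI, 4 reached 50 UMIs and 3 (FGF3, FGF4 and FGF20) had 0. Of all 31908 genes, 22857 had a UMI and 14443 reached 50 UMIs. FGF2, a broadly acting mitogen that lacks a signal peptide, was fibroblast-higher, at 148 and 88.6 CPM against 3.36 and 3.66 CPM in keratinocyte-like cells. Unlike FGF10 it was spread over all fibroblast-like clusters, from 56.6 CPM in cluster 7 to 190 CPM in cluster 21, and blood endothelial-like cluster 3 had 188 and 120 CPM. FGF1, which binds all FGF receptors, was keratinocyte-higher at 1.68 and 1.41 against 0.381 and 0.486 CPM, on 67 UMIs in all cells. FGF18 and FGF9 lay between the classes.

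The receptors took opposite sides. FGFR1 was fibroblast-higher, at 599 and 483 CPM against 9.18 and 5.63 CPM in keratinocyte-like cells. It was highest in cluster 0, at 985 and 663 CPM, the cluster with most FGF10, and had 326 and 335 CPM in cluster 5, the cluster with most FGFR2. FGFR3 was keratinocyte-higher, at 87.4 and 99.9 CPM against 3.30 and 3.10 CPM, and among those clusters it was highest in cluster 13, at 151 and 157 CPM, where FGFR2 was lowest in the fresh library. FGFR2, as given above, was less than 2-fold apart between the classes. FGFRL1, a receptor without a kinase domain, lay between.

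Among ligand carriers and matrix genes some members were far apart between the classes and most were not. FGFBP1, which releases FGFs from the matrix, was at 158 and 295 CPM in keratinocyte-like and 0.190 and 0.486 CPM in fibroblast-like cells, from 3 and 8 UMIs in the latter. Of 14 measured genes of heparan sulphate proteoglycans and their enzymes, 5 were fibroblast-higher, 1 was keratinocyte-higher and 8 lay between, beside 19.0% and 20.1% of all genes on the fibroblast and the keratinocyte side. The cell surface proteoglycan SDC1 was at 409 and 476 CPM in keratinocyte-like against 35.5 and 37.4 CPM in fibroblast-like cells. SDC2 (450 and 331 against 35.7 and 41.9 CPM), the glypican GPC3 (479 and 576 against 48.1 and 40.8 CPM) and the basement membrane proteoglycan HSPG2 (383 and 501 against 60.9 and 65.1 CPM) were on the fibroblast side. SULF1, a sulphatase that trims heparan sulphate, was at 288 and 234 against 17.6 and 20.5 CPM, and was highest in cluster 5 at 713 and 621 CPM and in cluster 0 at 590 and 478 CPM.

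Of 8 adaptors and relays inside the cell, 0 reached 2-fold in either direction in both libraries, beside 19.0% and 20.1% of all genes. GRB2 (log2 ratio -0.76 and -0.76, fibroblast-like over keratinocyte-like) and PLCG1 (-0.69 and -0.87) had lower values in fibroblast-like cells within that limit. Of 9 feedback inhibitors and transcription targets, 4 were fibroblast-higher (19.0% of all genes), 1 was keratinocyte-higher (20.1% of all genes) and 4 lay between. The 4 on the fibroblast side are inhibitors of ERK signalling, and so are 3 of those between, SPRED2 (log2 ratio -0.66 and -0.98), DUSP6 (-0.27 and 0.33) and IL17RD (-0.46 and 2.83). SPRY1 was at 134 and 88.0 against 21.9 and 23.4 CPM, SPRY2 at 77.5 and 127 against 38.3 and 44.3 CPM, SPRY4 at 28.9 and 34.3 against 3.62 and 4.41 CPM, and SPRED1 at 228 and 200 against 70.1 and 63.9 CPM. The transcription factor ETV4, a target of FGF signalling, was keratinocyte-higher at 17.7 and 25.2 against 3.17 and 2.73 CPM.

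Some of these genes were high in the FGFR2-rich fibroblast-like cluster 5, in a comparison chosen after their values were seen. ETV4 had 15.8 and 17.5 CPM in cluster 5, against at most 9.52 CPM in the other fibroblast-like clusters. SPRY4 had 72.7 and 117 CPM there, and 57.6 and 62.9 CPM in cluster 0. Over the 12 fibroblast-like sums, r with FGFR2 was 0.81 for SPRY1 and 0.72 for ETV5. For the other feedback inhibitors and targets no r is given, nor is the share of all genes with r this high. Nothing about the group as a whole is read from these values. SPRY1 and SPRY4 were not particular to these cells, since mural cluster 9 had 208 and 198 CPM of SPRY1 and 109 and 165 CPM of SPRY4 beside 16.9 and 17.4 CPM of FGFR2.

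Both epithelial splicing regulators were keratinocyte-higher. ESRP1 was at 513 and 465 CPM in keratinocyte-like against 0.825 and 1.21 CPM in fibroblast-like cells, and ESRP2 at 39.2 and 59.3 against 0.190 and 0.668 CPM. FGFR2 thus had its UMIs in cells with and in cells nearly without ESRP1. Which splice form each class carried was not measured.

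**Figure D3:**
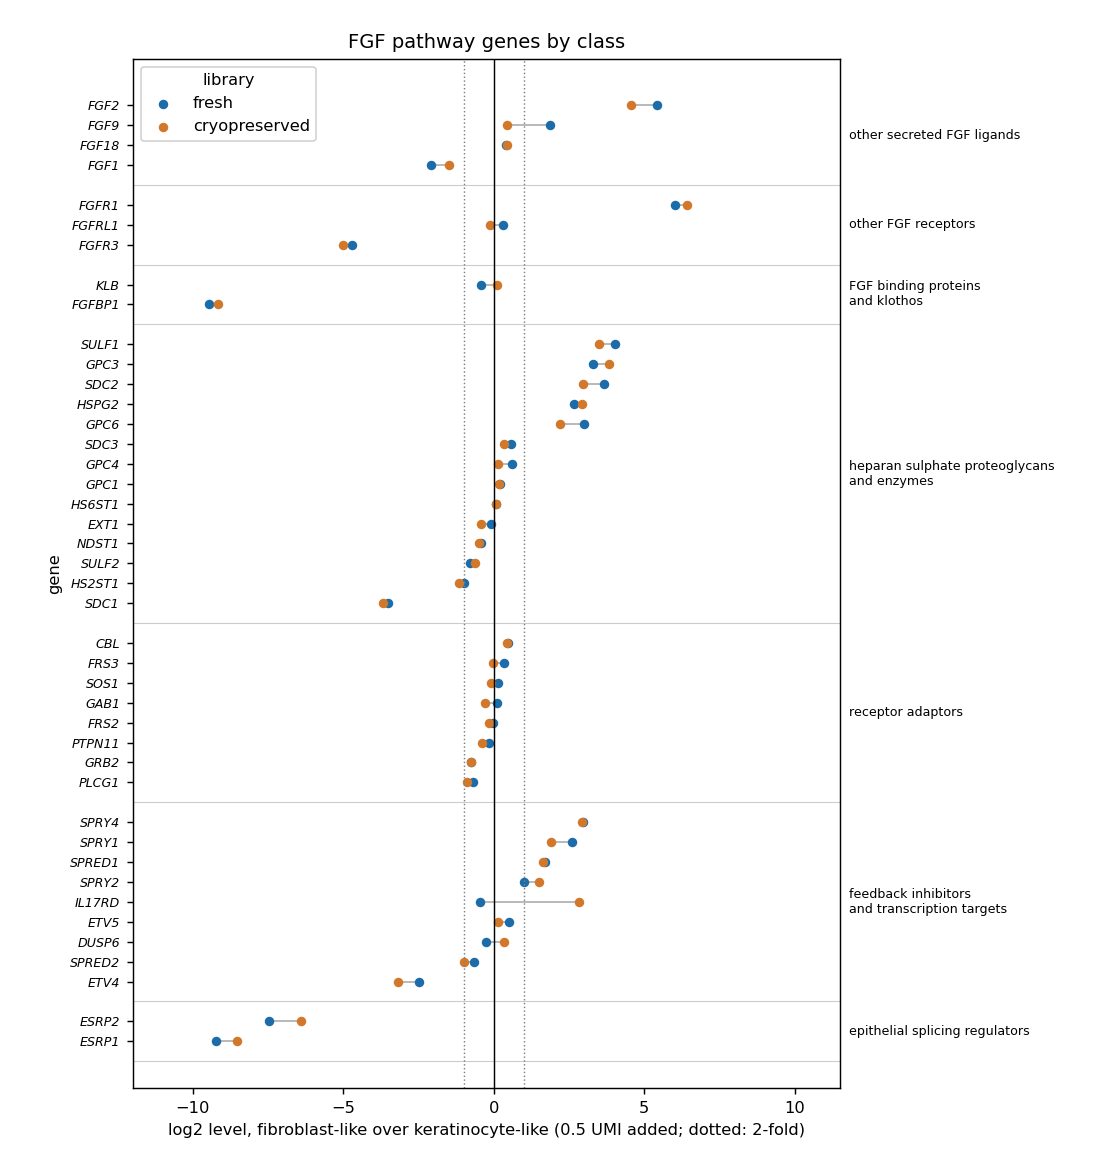
Log2 ratio of fibroblast-like over keratinocyte-like level for the 42 FGF pathway genes with at least 50 UMIs, grouped by role, in the fresh (blue) and cryopreserved (orange) library, with 0.5 UMI added to each count and dotted lines at 2-fold. FGFR1 and FGF2 lie far to the fibroblast side, FGFBP1, ESRP1, ESRP2 and FGFR3 far to the keratinocyte side, and the receptor adaptors stay within 2-fold.

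The libraries were made to compare cryopreserved with fresh cells. In fibroblast-like cells the log2 ratio of FGF10, cryopreserved over fresh, was 0.11 (0.000395 to 0.22). Of 11847 genes with at least 50 UMIs in these cells 2.46% differed at least 2-fold (0.794% of genes with at least 200 UMIs), and 79.2% differed at least as much as FGF10. The class value hid the subsets. In cluster 0 the log2 ratio was -0.021 (-0.15 to 0.10) and in cluster 7 it was -0.56 (-0.83 to -0.28). Of genes with at least 50 UMIs, 97.0% in cluster 0 and 18.1% in cluster 7 differed at least as much in either direction. In cluster 7, a single fresh cell held 30 of the 218 fresh UMIs. The thinned shares of cluster 7 cells with an FGF10 UMI had overlapping intervals, 14.9 to 29.8% in fresh and 10.5 to 19.9% in cryopreserved cells. Of 7 fibroblast-like clusters 5 had a lower cryopreserved FGF10 level. Cluster 21 did so on 1 against 0 UMIs and cluster 1 on 12 against 3, and in cluster 4 the interval included 0 (-1.70 to 0.019). The median log2 ratio of genes with at least 50 UMIs was also below 0, at -0.060 in cluster 0 and -0.018 in cluster 7. When the clusters were weighted by their UMIs in the fresh library, an alternative chosen after seeing the data, the log2 ratio of the class was -0.12. No interval was computed for that value. As a mean of per-cell levels the log2 ratio was -0.13, and with all barcodes it was 0.36 (0.26 to 0.47). Why the sign differed between these values was not tested.

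FGFR2 had a log2 ratio below 0 in both classes among the retained cells. In keratinocyte-like cells the log2 ratio was -0.16 (-0.24 to -0.07), where 2.98% of 10709 genes differed at least 2-fold (1.07% of genes with at least 200 UMIs) and 60.5% at least as much as FGFR2. In fibroblast-like cells it was -0.46 (-0.53 to -0.38), and 23.9% of genes differed at least as much. With all barcodes the keratinocyte-like value was -0.021 (-0.093 to 0.050), an interval that includes 0, and the fibroblast-like value was -0.26 (-0.33 to -0.19). With the cluster weights of the fresh library the values were -0.11 and -0.26. The ratio was below 0 in 4 of 5 keratinocyte-like clusters, from -0.51 in cluster 19 to -0.08 in cluster 8. It was below 0 in 6 of 7 fibroblast-like clusters, from -0.80 (-1.20 to -0.42) in cluster 4 to -0.12 in cluster 0. The intervals of clusters 0, 8 and 18 included 0. In clusters 0 and 8, 45.1% and 45.3% of genes with at least 50 UMIs were at least as low, against 5.66% in cluster 4.

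Cluster 13, the differentiated keratinocyte-like cells, went the other way, with a log2 ratio of 0.54 (0.27 to 0.82). Of 6666 genes with at least 50 UMIs in cluster 13, 16.49% differed at least as much in either direction. Their median log2 ratio was 0.064. The thinned share of cluster 13 cells with an FGFR2 UMI was 24.4% (15.6 to 35.1%) in fresh and 40.0% (32.3 to 48.0%) in cryopreserved cells. Freezing, animal and preparation cannot be told apart with 1 library per condition, and fewer cells of a subset and less RNA per cell cannot be told apart in the sums of a class.

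**Figure D4:**
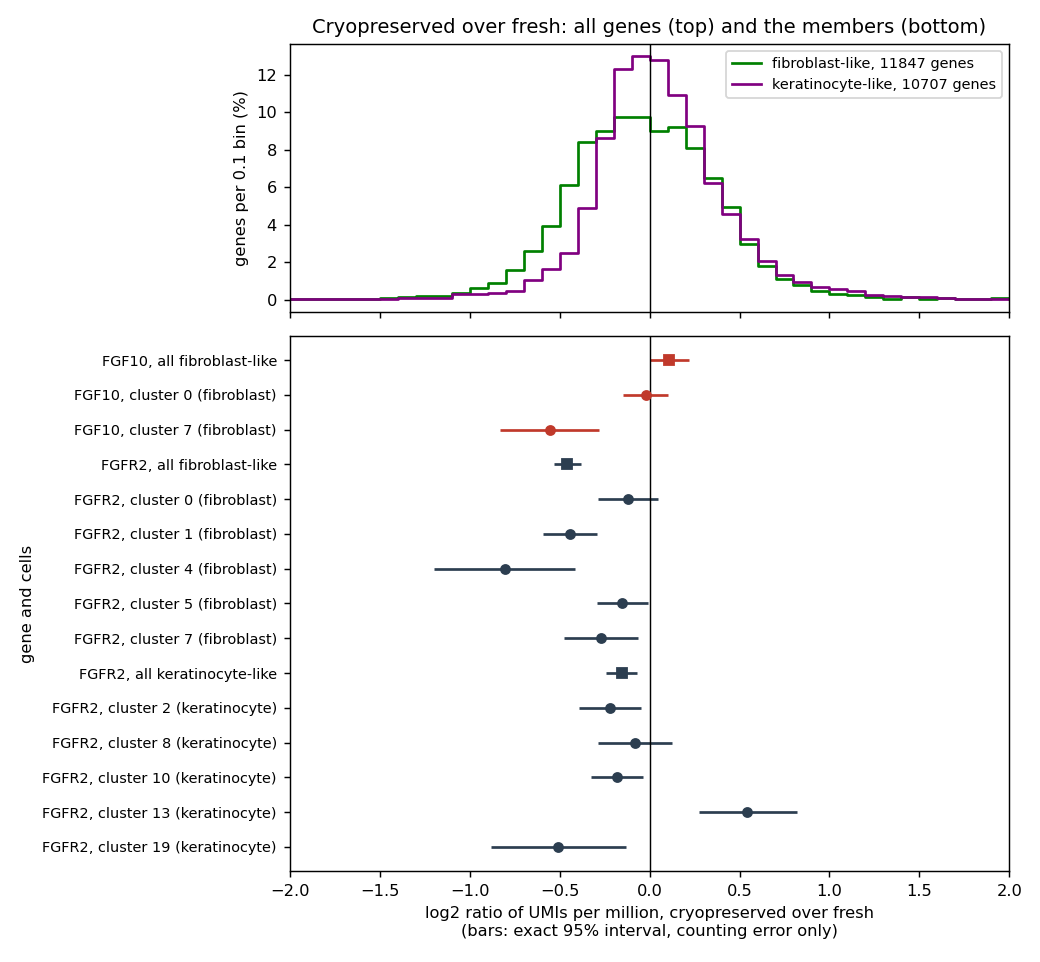
Log2 ratio of level, cryopreserved over fresh, for all genes with at least 50 UMIs in fibroblast-like and keratinocyte-like cells (top, percent of genes per bin of 0.1) and for FGF10 (red) and FGFR2 (dark) in each class (squares) and in clusters with at least 100 UMIs of the gene (circles), with exact 95% counting intervals. The 2 keratinocyte-like genes with 0 UMIs in a library are not drawn. FGFR2 lies below 0 in both classes, and cluster 13 lies above 0 at 0.54.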

How the data were processed

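The authors mapped reads from 10x Genomics 3′ v3 libraries to Sscrofa11.1 with Ensembl genes, and the processing notes name Cell Ranger 4.0.0 and STAR 2.5.1b. They deposited UMI counts per gene and barcode, not normalized. Dead cells and doublets were sorted out by the authors before sequencing. Scrublet (scanpy 1.11.5) marked 3 (0.108%) fresh and 35 (0.829%) cryopreserved cells, and none was removed. The study's maxima were applied, with 13 mitochondrial genes. Libraries were integrated and clustered with Seurat 5.3.0 (2000 features, 30 dimensions, resolution 0.8). FGF10, FGFR2 and all listed pathway genes were left out of the features, which removed 12 of the first 2000. A cluster was named X-like where at least 3 markers were in 10% of its cells and 2-fold over the median cluster, a rule set after a first output had been seen. Where more than 1 marker list passed, the list with the highest mean log2 fold over the median cluster gave the name. In each keratinocyte-like cluster another list also passed, with 6 markers. Intervals were exact Poisson, Clopper-Pearson or conditional binomial, at 95%, and PCR and cell sampling are not in them. For log2 ratios between classes of pathway genes and of all genes, and for ranges over clusters, 0.5 UMI was added to each count. The folds and the library ratios of FGF10 and FGFR2 used raw counts. The 2-fold calls between libraries and the search for genes alike to FGF10 were checked on simulated Poisson counts. Changes were planted only in genes with at least 200 UMIs, and spread among cells was not simulated. The 2-fold calls between classes were not checked in this way. The design planned a share of cells with both ligands, which was not run. Named genes were the members, pathway genes at least 2-fold apart between classes in both libraries (at most 5 per list), the 5 genes most alike to each member, and 6 subset markers. Pathway genes named although they lay within 2-fold in a library (FGF9, FGF18, FGFRL1, GRB2, PLCG1, SPRED2, DUSP6, IL17RD and ETV5) and ligands at 0 UMIs were chosen after their values were seen. Members and lists were chosen with earlier results of these data known.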

Additional observations from a re-analysis of the deposited data

Results flagged for a closer look

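FGFR2 in the differentiated keratinocyte-like cluster 13 had a log2 ratio of 0.54, cryopreserved over fresh, against -0.16 over all keratinocyte-like cells, and was singled out because its interval lay above 0 while those of clusters 2, 10 and 19 lay below. Of 6666 genes with at least 50 UMIs in cluster 13, 16.49% differed between libraries at least as much in either direction. For the FGFR2 values of clusters 2, 10 and 19 the corresponding shares of genes were 48.1%, 58.65% and 36.1%, so shifts of their size were common. With 1 library per condition the difference of FGFR2 was not tested.

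Barcodes outside the study's maxima, used above only in the values given with all barcodes, also held both genes above the limit that 0 counts would allow. In the 1004 fresh barcodes over the mitochondrial limit FGF10 was at 4.01 CPM (9 UMIs) and FGFR2 at 206 CPM (463 UMIs). In the 446 such cryopreserved barcodes the levels were 10.8 CPM (10 UMIs) and 107 CPM (99 UMIs). In barcodes over the gene or UMI maximum only, FGF10 was at 26.0 CPM in the 600 fresh and 27.1 CPM in the 191 cryopreserved ones, and FGFR2 at 127 and 121 CPM. The retained cells had 39.5 and 39.4 CPM of FGF10 and 162 and 134 CPM of FGFR2.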

How the results depend on the processing

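Of 95 values recomputed under alternatives for 19 results, 66 moved by less than their counting interval or by less than 1.5 times for a count of genes, 28 moved further and 1 changed sign. The value that changed sign was the log2 ratio of FGF10 in fibroblast-like cells, which was -0.13 as a mean of per-cell levels. The same mean gave FGFR2 folds of 2.096 and 2.69 for keratinocyte-like over all other cells, and 1.40 over fibroblast-like cells in the cryopreserved library. With all barcodes the FGF10 fold of fibroblast-like over other cells was 16.7 fresh and 47.6 cryopreserved, the log2 library ratios were 0.36 for FGF10, -0.021 for FGFR2 in keratinocyte-like and -0.26 in fibroblast-like cells, and 83.1% and 89.2% of FGF10 UMIs were in 2 clusters. That share was 95.9% and 96.7% at resolution 0.4, 89.6% and 91.2% at resolution 1.2, and 80.1% in the fresh library without integration. Without the 6% of cells with the highest Scrublet scores the cryopreserved FGF10 fold was 876. In the fresh library, where no FGF10 UMI was left outside, it was at least 451 against 3 counts over all other cells, and at least 444 without integration or with all features. Thinning to 1000 UMIs left an FGF10 UMI in 6.53% and 5.81% of fibroblast-like cells and an FGFR2 UMI in 20.5% and 18.4% of keratinocyte-like cells, while no thinning gave 21.0%, 22.9%, 85.1% and 77.4%. Genes past 2-fold between libraries were 0.794% (at least 200 UMIs) and 20.5% (at least 1 UMI) in fibroblast-like and 1.07% and 21.3% in keratinocyte-like cells. The thinning depth and the UMI minimum change the cells' depth and the genes counted by construction, and for the other settings the cause was not tested. TMM and DESeq2 factors shifted the library ratios by at most 0.063. No paired analysis was possible because each condition had 1 library, which also leaves no replicate to leave out. The alternatives for cells with both ligands were not run, since FGF7 was not analysed here.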
